A study of Mus musculus with 12 samples.

Results

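The 12 liver arrays of a study of ancestral maternal obesity were compared here by how much small structural RNA they carried. The high set held 7 arrays: control replicates 2 and 4, MatOb F2 replicates 1 and 4, and MatOb F3 replicates 1, 2 and 3. The low set held the other 5, which were control replicates 1 and 3, MatOb F2 replicates 2 and 3, and MatOb F3 replicate 4. All 12 arrays of the series were used, and each study group had arrays in both sets. The members of each set were chosen by the measured small nucleolar RNA level of these same arrays, so every difference between them is given as a description of these arrays, without a p-value.

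Each array measured liver RNA of 1 male C57BL/6 mouse aged 12 weeks. Control mice had lean control parents, and the MatOb F2 and MatOb F3 mice descended, per the labels, from obese Avy/a females; each of the 3 groups had 4 arrays. The labels give 100 ng of total RNA per array, extracted with Trizol, and do not say which mice were littermates. Values are on a log2 scale. For each gene, the difference given below is the high set minus the low set with the study group kept as a block. A gene was called not overlapping where every array of one set lay above every array of the other.

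Small structural RNAs are short, stable noncoding RNAs that work inside ribonucleoprotein particles. Box C/D and H/ACA small nucleolar RNAs (snoRNAs) guide methylation and pseudouridylation of ribosomal RNA, and most mammalian snoRNAs are cut from introns of host genes. Spliceosomal small nuclear RNAs (snRNAs) remove introns, 5S RNA is part of the large ribosomal subunit, and Y RNAs bind the Ro60 protein. The 7SK, 7SL, RNase P and RNase MRP RNAs are longer members of the same broad group.

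The mean log2 value over 337 snoRNA genes separated the sets without overlap, as the choice of sets requires. The lowest array of the high set was control replicate 4 at 6.33, and the highest of the low set was MatOb F3 replicate 4 at 6.03. The same 12 arrays fell into the same sets when either the box C/D or the box H/ACA snoRNAs alone were used. Both are part of the level that chose the sets, so this is no separate check. With snRNAs, 9 arrays were high, and 10 of 12 kept their set. Hepatocyte markers were high in every array: the mean over 11 of them was 11.95 ± 0.04 (SD, n = 7) in the high set and 12.00 ± 0.06 (SD, n = 5) in the low set, and the 2 ranges overlapped.

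Of 18725 genes above a filter on low signal (a mean log2 value over 4.55), 631 did not overlap and were higher in the high set, which is 3.37% of the genes. Another 438, or 2.34%, did not overlap and were lower. At a size of 0.3 or more these were 465 (2.48%) and 135 (0.721%), and over all 30142 genes measured, with no filter, 4.26% were higher and 1.56% lower without overlap. The median difference over all genes was -0.03. With or without overlap, 7459 of the 18725 genes were higher and 11266 lower, and with no filter 13111 of the 30142 were higher. These shares and counts are the background for every count below. They come from the contrast that defined the sets, and no count is read as evidence. The split depends on the scaling: with quantile normalization 474 were higher and 1389 lower, and with arrays centred on the median of all probe sets 422 and 1588. Centred on the protein-coding median, 902 were higher and 278 lower.

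All main families of short structural RNA were higher in the high set. The median difference was 0.38 for 37 box C/D snoRNAs, 0.44 for 13 box H/ACA snoRNAs and 0.22 for 287 snoRNAs of other names. It was 0.38 for 386 snRNAs, 0.53 for 69 5S ribosomal RNA genes and 1.04 for the 2 Y RNAs. The 386 snRNAs held 314 distinct sets of array values, since many are copies of one family. Of the 337 snoRNAs, 117 did not overlap and were higher, and none was not overlapping and lower. Of these 337, 28 had a low-set mean under the filter and so passed through the high set alone. Over all 955 snoRNAs measured, with no filter, 773 were higher, 277 of them without overlap, and the median was 0.15.

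**Figure D1:**
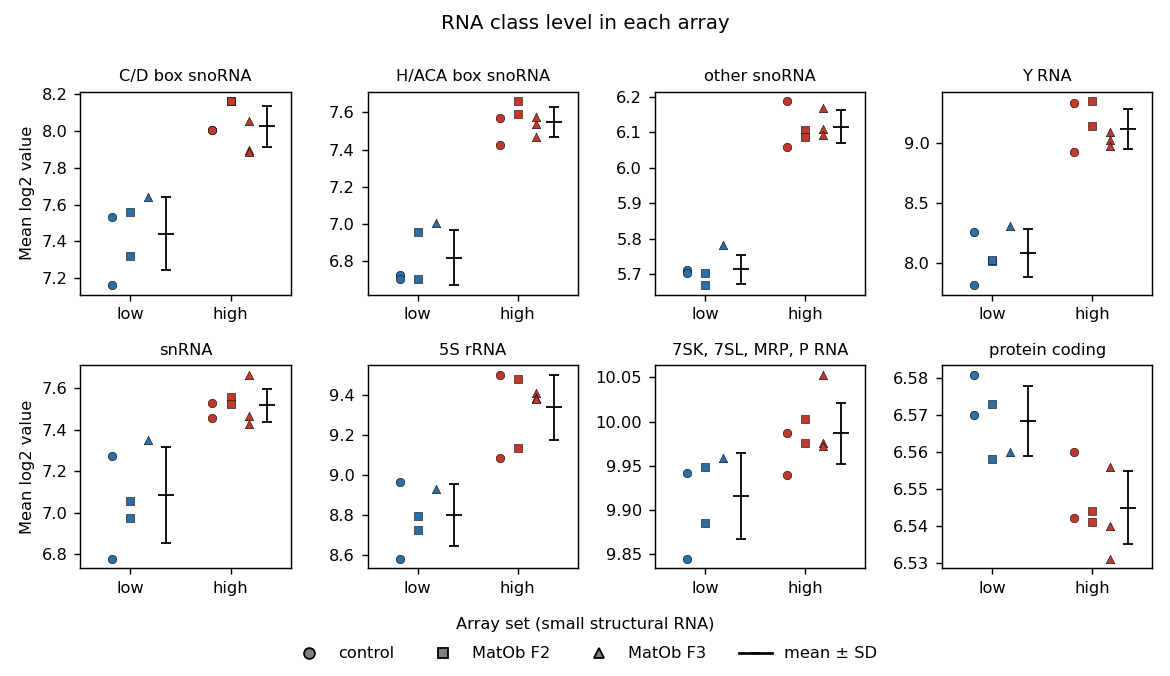
Mean log2 value of each RNA class in every array (y axis), by array set (x axis), with point shape for study group and bars for the mean ± SD of each set. The 7 high arrays lie above the 5 low arrays in the snoRNA, Y RNA, snRNA and 5S panels, and the sets overlap in the 7SK and protein-coding panels.

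The size of the difference varied widely among snoRNAs. Snora69, a box H/ACA snoRNA, was far apart between the sets. It read 7.64 at the lowest, 7.93 at the median and 8.09 at the highest among high arrays, against 3.82, 4.17, 4.13, 3.98 and 3.93 in control replicates 1 and 3, MatOb F2 replicates 2 and 3 and MatOb F3 replicate 4. All low arrays therefore sat close together, more than 3 log2 units under the nearest high array. The set means were 7.91 ± 0.16 (SD, n = 7) and 4.01 ± 0.15 (SD, n = 5). The low-set mean lay under the filter and under the low-set median of the negative control probe sets, 4.19, so Snora69 passed the filter through the high set alone and its difference of 3.94 is measured against background signal.

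Snord118, the U8 snoRNA that acts in the processing of large-subunit ribosomal RNA, read 6.24 to 6.81 in high arrays (median 6.52). In the low arrays it read 4.41 and 4.12 (control), 4.14 and 4.40 (MatOb F2) and 4.96 (MatOb F3). The difference was 2.15, and it was 2.30 within controls, 2.52 within MatOb F2 and 1.45 within MatOb F3. Its low-set mean of 4.41 was also under the filter. Snord16a was higher by 1.53, Snord35b by 1.57, Snora21 by 1.55 and Snora16a by 1.03. Among snoRNAs without a standard name, Gm24613 differed by 2.35, AF357399 by 2.30 and Gm26440 by 2.15, each without overlap. AF357399 had a low-set mean of 3.47, under the filter and the negative controls, so the size of its difference is set in part by background.

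Scarnas are the relatives of snoRNAs that modify snRNAs in Cajal bodies, and they did not move as one group. Scarna6 was higher by 0.63 and Scarna10 by 0.35, both without overlap, while Scarna17 differed by 0.06 and overlapped. Scarna2 ran the other way. It read 7.57 to 8.10 in high arrays (median 7.91) and 8.53, 8.82, 8.64, 8.61 and 8.88 in low arrays. Its difference of -0.81 did not overlap and was negative within all 3 study groups, making it the only not overlapping lower member of the snoRNA and scaRNA classes.

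Most snoRNAs sit inside a host gene, and 122 tested snoRNAs lay within the span of a tested protein-coding or long noncoding gene in the RefSeq table, which gives no strand. Their median difference was 0.27, and 44 were higher without overlap. The 115 host genes had a median of 0.00 and ranged from -0.27 to 0.34, with 3 higher and 1 lower without overlap. Rpl39, a ribosomal protein gene that spans Snora69, differed by -0.08.

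Snord16a and Gm23136, both within Rpl4, differed by 1.53 and 1.54, while Gm23344 in the same gene differed by -0.20 and Rpl4 itself by -0.03. Rpl4 encodes a protein of the large ribosomal subunit. Nop58, which encodes a core box C/D protein, differed by 0.16. Its snoRNAs Snord11 and Snord70 differed by 1.52 and 0.03. Members of one host gene thus did not share one difference.

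Snhg14, a long imprinted transcript known to carry repeated snoRNA clusters, spanned 169 measured snoRNA genes. With no filter, all 169 were higher in the high set and 133 did not overlap, with a median of 1.32; over all genes measured with no filter, 4.26% were higher without overlap. Only 35 passed the filter, 3 of them through the high set alone, and these had a median of 0.74 and a range of 0.14 to 0.99. Many of the 35 are near-identical copies, with 21 distinct sets of array values among them. Snhg14 itself was not among the genes tested, so its own level is not compared here.

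The 2 Y RNAs were both higher without overlap. Rny1 read 7.19 to 7.71 in high arrays (median 7.43) and 6.45, 5.92, 6.19, 6.09 and 6.53 in low arrays, a difference of 1.22. Rny3 read 10.63 to 11.02 (median 10.76) against 10.08, 9.71, 9.85, 9.95 and 10.09, a difference of 0.87. Both were higher within each study group. The mRNAs of 31 proteins that bind small RNAs had a median of -0.04, with none higher and 2 lower without overlap.

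Spliceosomal RNAs split by family. The U1 genes Rnu1a1, Rnu1b1, Rnu1b2 and Rnu1b6 were higher by 1.08 to 1.22 and the U2 gene Rnu2-10 by 1.15, all without overlap. Rnu1a1 read 11.08 to 11.28 in high arrays (median 11.20) and 10.14, 9.66, 9.85, 9.97 and 10.20 in low arrays. The 2 genes Rnu1b1 and Rnu1b2 carry identical values and count as a single measurement. U6 (Rnu6, difference 0.38), U11 (Rnu11, 0.29) and U12 (Rnu12, 0.04) overlapped between the sets. U11 and U12 serve the minor spliceosome. U3, which is a box C/D snoRNA in function although the gene table types it as an snRNA, differed by 0.73 (Rnu3a, no overlap) and by 0.35 to 0.36 (Rnu3b1, Rnu3b4, overlapping). Gm23287 had the widest snRNA difference, 2.27.

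For 5S ribosomal RNA, Rn5s read 11.63 to 11.96 in high arrays (median 11.85) and 11.29, 10.67, 11.01, 11.03 and 11.12 in low arrays. The difference was 0.79, and n-R5s162 differed by 1.01. The 69 5S genes held 36 distinct sets of values, since copies share probes.

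RNAs with a gene span of 271 bases or more did not share the pattern. Among 8 such RNAs the differences ran from -0.09 to 0.07 and none was not overlapping. The RNase MRP RNA Rmrp, which processes ribosomal RNA precursors, read 10.85 to 11.04 in high arrays (median 10.94) and 11.02, 10.82, 10.99, 10.85 and 10.84 in low arrays, a difference of 0.05. The RNase P RNA Rpph1 differed by -0.09, the telomerase RNA Terc by -0.02, the 7SL RNAs Rn7s1 and Rn7s2 by 0.00, and 7SK (Rn7sk) by 0.07. A 28S ribosomal RNA fragment, Rn28s1, differed by 0.00, and the mitochondrial 12S RNA mt-Rnr1 by 0.05. The 7SK, 7SL, 28S and 12S means lay within 1 log2 unit of the highest value on the arrays, 13.64, and those of Rmrp, Rpph1 and Terc did not.

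The relation to gene span was not a steady one. Median differences were 0.21 for 38 RNAs of up to 80 bases, 0.70 for 59 of 81 to 100 bases and 0.38 for 353 of 101 to 120 bases. They were 0.23 for 268 of 121 to 150 bases, 0.91 for 75 of 151 to 200 bases and 0.36 for 15 of 201 to 270 bases. Copies of one family often share 1 set of array values, so these medians lean on families with many copies. Rnu6 (span 107 bases, difference 0.38) and many copies with its values lie in the group of 101 to 120 bases. The parts of family and of span were not tested. Rn4.5s, whose span is 174 bases, was an exception among the shorter RNAs. It read 11.12 to 11.54 in high arrays (median 11.41) and 11.53, 11.10, 11.37, 11.38 and 11.66 in low arrays, a difference of -0.02. Bc1 (span 154 bases) was higher by 0.34, and the RNase P related Rprl3 (235 bases) by 0.17, both without overlap.

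**Figure D2:**
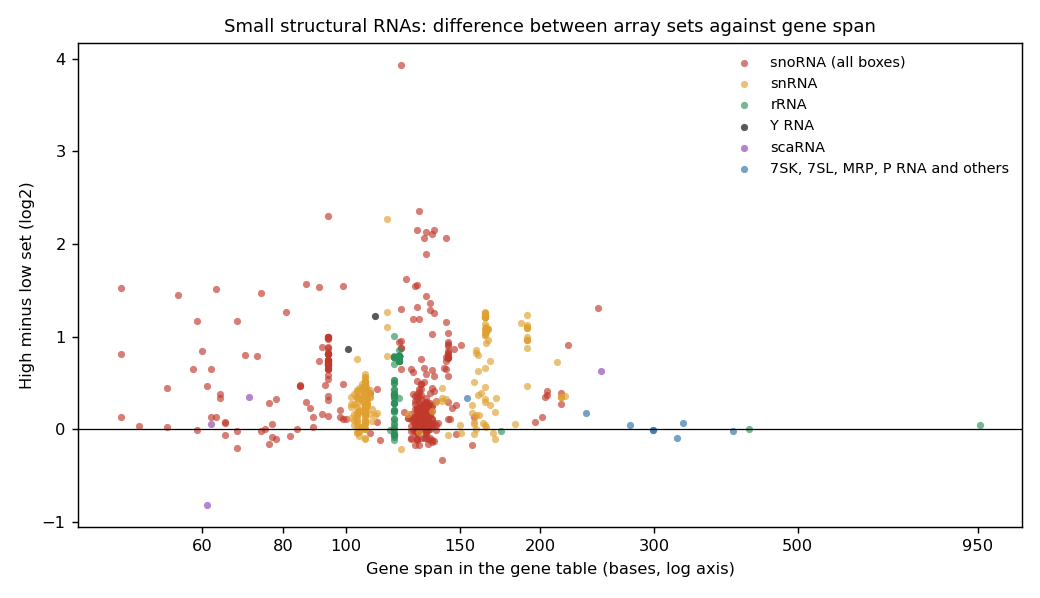
Difference between array sets (log2, y axis) against gene span (bases, log x axis) for the small structural RNAs above the filter, coloured by class, 1 point per gene. The cloud lies mostly above 0 up to about 270 bases, and the 8 RNAs of 271 bases or more lie between -0.09 and 0.07.

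Mitochondrial tRNA showed one of the largest gaps. mt-Tk, the lysine tRNA, read 9.26 to 10.68 in high arrays (median 9.62) and 7.15, 5.81, 7.86, 6.83 and 6.49 in low arrays, a difference of 3.00 with no overlap. Protein-coding transcripts of the same genome did not follow it. ND2, a subunit of respiratory complex I, was lower by 0.55 without overlap, and the 6 mitochondrially encoded genes tested had a median of 0.03. Among 19 probe sets with the mitochondrial identifier prefix but no gene name, 11 were higher and 2 lower without overlap, with differences from -1.83 to 3.60.

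MicroRNAs had a class median near 0, with more members higher than lower without overlap. The median over 254 microRNA genes was -0.01. Of these, 24 (9.45%) were higher and 3 (1.18%) lower without overlap, against 3.37% and 2.34% of all genes tested. With no filter, 37 of 606 were higher without overlap. Whole-transcript probes read hairpins and longer precursors as well as mature microRNAs, so the values below are of the gene and not of the mature strand. Of the 254 genes, 202 matched RefSeq's sequence table (GRCm38.p6). The 3 with the largest not overlapping differences are Mir101c, Mir1950 and Mir680-3. Their mature sequences are printed to show that they share no seed (bases 2 to 8, in capitals), so the largest differences do not belong to a single targeting family:
mmu-miR-101c (chr9:3038680-3038698, minus strand): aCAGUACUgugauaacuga
mmu-miR-1950 (chr19:34965402-34965423, plus strand): uCUGCAUCuaaggauaugguca
mmu-miR-680 (Mir680-3, chr12:35194849-35194869, minus strand): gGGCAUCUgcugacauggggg

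Mir101c read 5.87 to 8.46 in high arrays (median 6.59) and 3.59, 4.42, 4.503, 4.32 and 3.96 in low arrays. Its low-set mean of 4.16 was under the filter and close to the negative control median of 4.19, so it passed through the high set alone and its difference of 2.83 is measured against background signal. The high arrays were spread over more than 2 log2 units, with control replicates 2 and 4 at the top. No other mature microRNA in the table carries the miR-101c seed. Mir1950 read 7.50 to 7.78 (median 7.65) against 6.78, 6.54, 6.64, 6.68 and 6.71, a difference of 0.93. The miR-680 sequence above is encoded by 3 genes, which were all higher without overlap: Mir680-3 by 0.86, Mir680-1 by 0.77 and Mir680-2 by 0.49. The latter 2 genes were named because they share that sequence, after their values were seen.

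**Figure D3:**
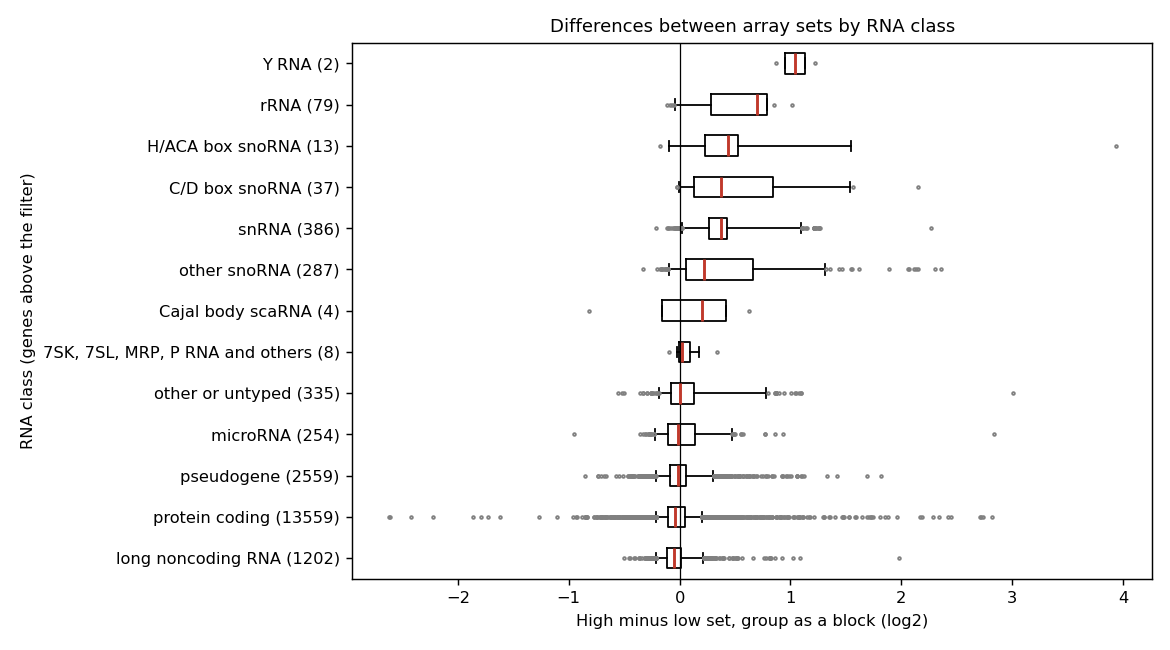
High minus low difference (log2, x axis) of each gene above the filter, by RNA class (y axis, number of genes in brackets). Boxes span the quartiles with the median in red, whiskers the 5th to 95th percentile and dots the genes outside; the medians of the Y RNA, rRNA, H/ACA, C/D and snRNA classes lie at 0.38 or more, and those of the protein-coding, pseudogene and long noncoding classes between -0.05 and -0.01.

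Long noncoding RNAs did not go with the small RNAs to the same extent. The median over 1202 long noncoding genes was -0.05, with 29 (2.41%) higher and 16 (1.33%) lower without overlap. Both shares were under the 3.37% and 2.34% of all genes tested. Malat1, an abundant nuclear RNA, differed by 0.12, and 9 nuclear long noncoding RNAs had a median of 0.11 with no member free of overlap; the median was 0.05 without control replicate 2. A list of 9 long noncoding snoRNA hosts had a median of 0.00.

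Multi-copy genes formed a further group that was higher, and it was singled out after the values were seen. Of 65 measured genes on probe sets with the Y chromosome prefix, leaving out the single-copy genes, 63 were higher and 59 did not overlap with no filter, with a median of 1.49. Of these, 29 passed the filter, 25 of them through the high set alone. Sly, a gene of many Y copies known from spermatids, read 5.04 to 5.77 in high arrays (median 5.41) and 4.01, 3.81, 3.74, 3.75 and 3.52 in low arrays, a difference of 1.59. Gm20935 differed by 2.82, the noncoding Orly by 1.98 and the pseudogene Gm20858 by 1.81. The low-set means of Sly, Gm20935 and Gm20858 were 3.77, 3.74 and 4.01, all under the filter and the negative control median, so these differences are measured against background signal.

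Single-copy Y genes gave another picture. Of 8 measured with no filter, 6 were higher, none was free of overlap, and the median was 0.03. The 5 that passed the filter had a median of 0.14. Eif2s3y, a translation factor subunit, differed by 0.16, Kdm5d, a histone demethylase, by 0.14 and Uba1y by -0.02.

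Some families of autosomal or X-linked copies were also higher. All 13 measured Speer genes and all 17 measured Btbd35f genes were higher, 7 and 16 of them without overlap. Only 3 Speer and 2 Btbd35f genes passed the filter, so most of these counts are of genes under it. Over all genes measured with no filter, 4.26% were higher without overlap. Speer4c differed by 1.17, Speer4d by 1.03, the pseudogene Speer8-ps1 by 1.69, Btbd35f12 by 1.03 and Csprs by 1.11. All 3 Speer genes above the filter passed it through the high set alone, with a mean low-set level of 4.13 that is within the range of the negative controls. Of 492 vomeronasal receptor genes measured, 386 were higher and 89 did not overlap, with a median of 0.10. Only 14 passed the filter, 4 of them through the high set alone, and 6 of the 14 were higher without overlap. Vmn1r115 differed by 1.47 and Vmn1r118 by 1.30, both with low-set means under the filter. Of 1225 olfactory receptor genes, 924 were higher and 51 did not overlap, with a median of 0.08. Above the filter, 3 of 95 (3.16%) were higher without overlap, with a median of 0.01. This was near the 3.37% of all genes tested, so olfactory receptors did not stand out from the background. Copies of one family can share probes, so these counts are not of independent measurements.

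The 12462 probe sets above the filter that the annotation does not name had a median difference of 0.03, and 1452 (11.7%) of them were higher and 89 (0.714%) lower without overlap. The median of 5222 negative control probe sets was 4.30 ± 0.08 (SD, n = 7) in the high set and 4.19 ± 0.10 (SD, n = 5) in the low set, and their median difference was 0.07. Background probe sets with 13 to 25 G or C bases were lower by a median of 0.24, with 7 of 13 not overlapping, while those with 3 to 12 were lower by 0.04. The spiked hybridization controls differed by -0.08 to 0.06 and overlapped. The part of background signal and probe composition in the small RNA and multi-copy differences was not tested.

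**Figure D4:**
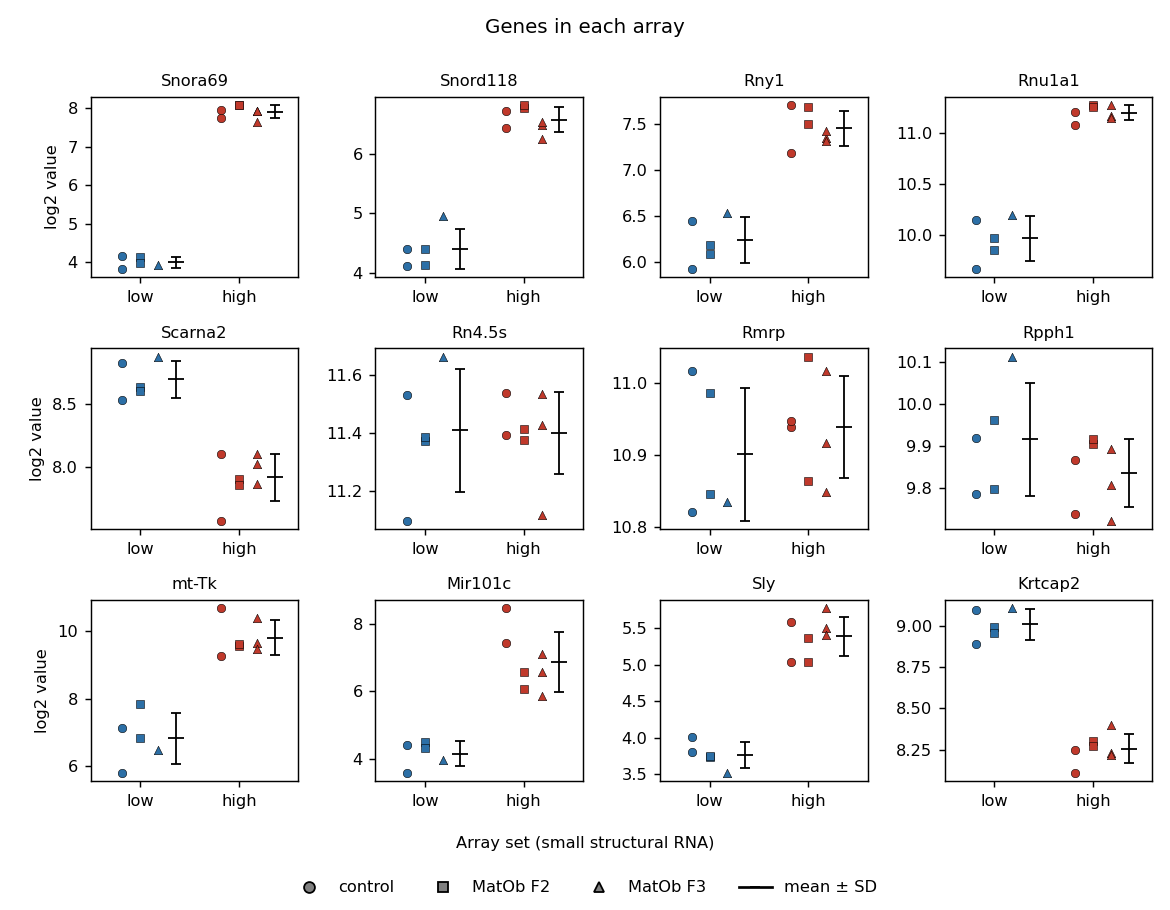
Log2 value of 12 genes in every array (y axis), by array set (x axis), with point shape for study group and bars for the mean ± SD of each set. Snora69, Snord118, Rny1, Rnu1a1, mt-Tk, Mir101c and Sly are higher in all 7 high arrays, Scarna2 and Krtcap2 are lower in all 7, and Rn4.5s, Rmrp and Rpph1 overlap.

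Protein-coding genes lay slightly to the other side, by an amount that is near the shift of all genes and moves with the scaling. Their median difference over 13559 genes was -0.04, with 210 (1.55%) higher and 372 (2.74%) lower without overlap. Differences of 1 or more in the high direction without overlap were found for 42 protein-coding genes, 25 of which lay on Y-prefix probe sets. Among all 18725 genes there were 134 such differences. Of the 13559 protein-coding genes, 97 had a low-set mean under the filter, so part of the large differences can be measured against background signal. In the other direction, 18 protein-coding genes were lower by 0.5 or more without overlap, of 26 among all genes tested.

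The mRNAs of proteins that make or carry small RNAs had differences centred near 0. Of 46 snoRNP and ribosomal RNA processing genes, 23 were higher and 23 lower, with a median of 0.00 and 1 not overlapping, Nop16, a nucleolar protein gene, at -0.34. RNA polymerase I and III genes, 35 in all, also had a median of 0.00, with Gtf3c3 higher by 0.30 and Gtf3c5 lower by 0.13 without overlap. Both encode subunits of the polymerase III factor TFIIIC. Spliceosome proteins had a median of 0.03 over 47 genes, with 1 higher and 3 lower without overlap. For the exosome and RNA decay list of 36 genes the median was 0.04. The 5′ to 3′ exonucleases Xrn1 and Xrn2 were its 2 members without overlap, higher by 0.23 and 0.25.

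The 35 ribosomal protein genes tested had a median of -0.06, with 27 lower, where 11266 of all 18725 genes tested were lower. Of the 35, 3 (8.57%) were lower without overlap, against 2.34% of all genes tested. Rpl27 at -0.32 and Rpl38 at -0.28 were among the 3. The 71 oxidative phosphorylation genes had a median of -0.03, the same as all genes tested. Of the 71, 4 (5.63%) were lower without overlap, among them Cox6a1 at -0.41 and Ndufa8 at -0.32. Mitochondrial ribosomal proteins had a median of -0.05 over 74 genes. Replication-dependent histones had a median of -0.12 over 11 genes, and H1f2, a linker histone, was lower by 0.67 without overlap.

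Lipid synthesis genes were higher. Of 34 fatty acid and cholesterol synthesis genes, 31 were higher and 5 did not overlap, with a median of 0.43. Hmgcs1, which makes the HMG-CoA used for cholesterol, read 8.55 to 10.89 in high arrays (median 8.88) and 7.85, 7.85, 7.71, 8.12 and 8.29 in low arrays. The difference was 1.21, and 0.82 without control replicate 2. Me1, the malic enzyme that supplies NADPH, read 10.71 to 11.87 (median 10.89) against 10.25, 9.75, 9.74, 10.01 and 9.80, a difference of 1.15. Outside the list, Aacs, acetoacetyl-CoA synthetase, read 8.19 to 9.003 (median 8.68) against 7.94, 7.51, 7.11, 8.02 and 7.08, a difference of 1.09.

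The mean level of the 34 listed genes was 8.84 ± 0.37 (SD, n = 7) in the high set and 8.38 ± 0.08 (SD, n = 5) in the low set, and MatOb F2 replicate 4, at 8.33, lay among the low arrays. Control replicate 2 was highest, at 9.50. The list median was 0.33 without control replicate 2.

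Fatty acid oxidation and PPAR-alpha target genes were also higher, 32 of 34, but only 1, the acyl-CoA dehydrogenase gene Acadvl, did not overlap (difference 0.28). The median was 0.29, and 0.20 without control replicate 2. Cyp4a14, an omega-hydroxylase and a textbook PPAR-alpha target, read 7.14 to 12.59 in high arrays (median 8.69) and 7.46, 9.76, 6.92, 7.79 and 5.72 in low arrays. Its sets overlapped, and control replicate 2 and MatOb F2 replicate 4 held the 2 highest values. Vnn1 differed by 1.40 and Acot3 by 1.35, both with overlap. Outside the list, Abcd2, a peroxisomal fatty acid transporter, did not overlap at 1.58, but control replicate 2 read 9.24 and the next array 7.23, and the difference was 1.08 without it.

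Acute phase genes were lower. Of 28, 27 were lower, 1 of them without overlap, and the median was -0.39. Lcn2, the iron-siderophore binding protein lipocalin 2, read 5.55 to 7.48 in high arrays (median 5.94) and 8.83, 6.67, 10.33, 6.42 and 10.21 in low arrays. Saa1, serum amyloid A, read 7.06 to 11.95 (median 8.57) against 12.03, 8.88, 12.66, 9.03 and 11.65, a difference of -2.22. Orm3, an orosomucoid gene, read 5.01 to 6.34 (median 6.05) against 7.98, 6.45, 7.88, 6.56 and 7.94, a difference of -1.62 without overlap. The low set was itself divided: control replicate 1, MatOb F2 replicate 2 and MatOb F3 replicate 4 were high, and the other 2 were close to the high set. In the high set, MatOb F3 replicate 3 had the highest mean level of the list, 9.95. It lay above control replicate 3 at 9.50 and MatOb F2 replicate 3 at 9.59 of the low set. Without MatOb F2 replicate 2 the list median was -0.22.

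Kupffer cell and macrophage markers were also lower, but not in every study group. All 14 were lower, 1 without overlap, with a median of -0.17, or -0.07 without MatOb F2 replicate 2. Within MatOb F3 alone their median was 0.12, while that of the acute phase genes was -0.34. The mean level of the markers was 7.26 to 7.83 in high arrays and 7.50 to 8.11 in low arrays. Cd68, a lysosomal macrophage protein, read 6.75 to 7.29 (median 7.21) against 7.83, 7.56, 8.05, 7.45 and 7.46, a difference of -0.49 without overlap. In bulk liver, fewer cells of a type and less RNA per cell cannot be told apart, and the part these cells have in the acute phase difference was not tested.

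**Figure D5:**
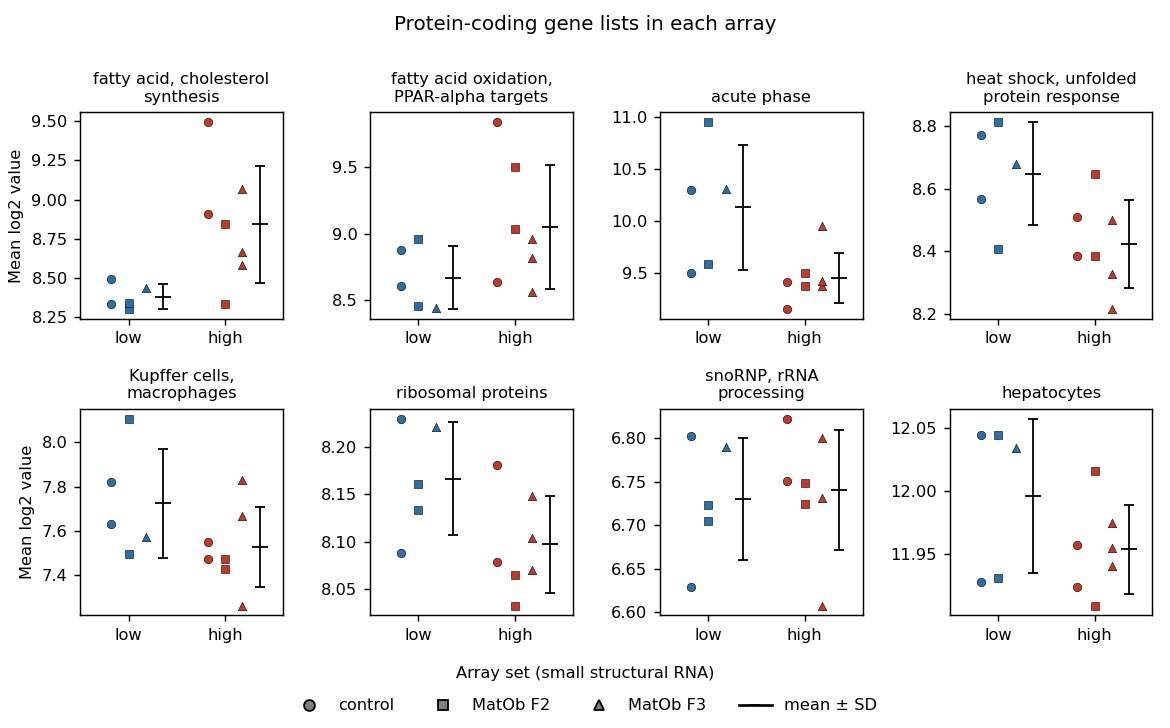
Mean log2 value of 8 protein-coding gene lists in every array (y axis), by array set (x axis), with point shape for study group and bars for the mean ± SD of each set. In every panel at least 1 array of one set lies within the range of the other.

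Most genes of a joint heat shock and unfolded protein response list were lower. Of its 38 genes, 33 were lower, where 11266 of all 18725 genes tested were lower. The list median was -0.15, or -0.23 without MatOb F2 replicate 2. The list was not split into genes of the endoplasmic reticulum and others. The 2 without overlap were Sdf2l1 and Dnajc3, a cochaperone of the endoplasmic reticulum that differed by -0.24. Sdf2l1, a chaperone cofactor, read 7.40 to 8.08 in high arrays (median 7.86) and 8.36, 8.60, 8.22, 8.62 and 8.70 in low arrays, a difference of -0.70. Outside the list, Derl3, which acts in export of misfolded proteins from the endoplasmic reticulum, read 6.05 to 6.50 (median 6.42) against 6.86, 7.75, 6.57, 7.65 and 7.21, a difference of -0.88 without overlap. Of the list, Creld2 differed by -0.93 and the cochaperone Bag3 by -0.60, with overlap.

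The unfolded protein response acts in part through a promoter element, ERSE, and the promoters of Derl3, Creld2 and Hspa5 are shown because they carry it. The motif searched was CCAAT, 9 bases of any kind and CCACG, on both strands, over 250 bases before and 50 after each start site in RefSeq (GRCm38.p6). It is in capitals below, on the minus strand in Derl3 and Creld2 and on the plus strand in Hspa5, the gene of the chaperone BiP:
Derl3 (chr10:75893148-75893447, plus strand): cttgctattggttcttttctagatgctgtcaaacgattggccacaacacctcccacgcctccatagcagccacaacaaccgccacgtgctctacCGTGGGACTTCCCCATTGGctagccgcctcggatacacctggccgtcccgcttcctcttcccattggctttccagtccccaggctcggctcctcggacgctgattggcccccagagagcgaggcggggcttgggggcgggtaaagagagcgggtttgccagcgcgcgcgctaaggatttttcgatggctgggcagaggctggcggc
Creld2 (chr15:88819396-88819695, plus strand): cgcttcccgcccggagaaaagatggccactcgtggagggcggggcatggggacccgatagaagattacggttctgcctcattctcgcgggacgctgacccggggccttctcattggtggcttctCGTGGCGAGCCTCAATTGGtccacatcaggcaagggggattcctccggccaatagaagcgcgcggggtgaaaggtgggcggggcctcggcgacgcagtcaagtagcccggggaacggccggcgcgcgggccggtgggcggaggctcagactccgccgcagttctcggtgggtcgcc
Hspa5 (chr2:34771840-34772139, plus strand): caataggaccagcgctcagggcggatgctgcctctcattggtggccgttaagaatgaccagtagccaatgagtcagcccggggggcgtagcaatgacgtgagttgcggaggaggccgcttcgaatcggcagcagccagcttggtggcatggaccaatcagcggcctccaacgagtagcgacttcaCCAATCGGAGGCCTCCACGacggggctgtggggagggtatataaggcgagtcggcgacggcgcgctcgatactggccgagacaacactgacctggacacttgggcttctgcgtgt

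Of 32851 promoters, 39 (0.119%) hold this motif. Of 32 list members with a promoter in the table, 7 hold it: Calr, Canx, Creld2, Dnajc3, Hsp90b1, Hspa5 and Pdia6. All 7 were lower, from -0.93 to -0.06, with a median of -0.23. The 25 members without it had a median of -0.15, and the ranges overlap. Hspa5 was named for its promoter and differed by -0.32 with overlap. A motif match is a description of the sequence and not a bound site.

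Further protein-coding genes were lower without overlap. Moxd1, a monooxygenase-like gene, read 4.62 to 8.84 in high arrays (median 7.94) and 10.15, 9.49, 9.63, 9.52 and 10.74 in low arrays, a difference of -2.62, or -1.98 without control replicate 2. Ifitm2, an interferon-induced membrane protein, read 8.97 to 9.35 (median 9.14) against 9.86, 9.79, 10.30, 9.65 and 10.25, a difference of -0.84. Krtcap2, a subunit of the oligosaccharyltransferase, read 8.11 to 8.40 (median 8.25) against 9.10, 8.89, 8.99, 8.96 and 9.11, a difference of -0.77 with SDs of 0.09 in each set. Alg3, a mannosyltransferase of N-glycan assembly, read 7.98 to 8.52 (median 8.39) against 9.20, 8.95, 9.10, 9.04 and 9.29, a difference of -0.75. Slc46a3 was lower by 0.71 and Tmem86b by 0.67, and the water channel Aqp8 was higher by 0.88, each without overlap.

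Secreted hepatocyte proteins (32 genes) had a median of -0.05, and cytochrome P450 and xenobiotic genes (61) a median of 0.05. Among the latter, Cyp2b9 overlapped between the sets, and its difference of 0.83 was 0.05 once control replicate 2 was left out. The remaining 16 of 36 lists, which cover immediate early, clock, cell cycle, receptor, zinc finger and immune segment genes and 9 sets of other cell type markers, had medians from -0.17 to 0.04. At the low end, 3 erythroid markers had a median of -0.17 (-0.07 without control replicate 2), 4 cholangiocyte markers -0.15 and 5 T and NK cell markers -0.14 (-0.04 without MatOb F2 replicate 2). All of these markers were lower and none was free of overlap.

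The study groups are given by the labels and not by the array values, so their contrast could be tested with the array set as a term. With limma across 18725 genes and Benjamini-Hochberg adjustment, no gene was called between MatOb F2 and control mice (0%; smallest adjusted p 0.9999) or between MatOb F3 and control mice (0%; smallest adjusted p 0.5607). At an unadjusted p under 0.05 there were 304 genes for MatOb F2 and 699 for MatOb F3, against 172 and 548 without the array set term. Each of these counts is under the share of 0.05 of the 18725 genes that this threshold passes where nothing differs. The rise with the array set term is therefore not read as a difference between study groups. Both comparisons share the control arrays.

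The median residual SD over all genes went from 0.13 with the study group alone to 0.12 with group and set. For the rRNA class it went from 0.44 to 0.18, for Y RNAs from 0.61 to 0.20, and for box H/ACA snoRNAs from 0.32 to 0.16. Protein-coding genes went from 0.12 to 0.11. The sets were chosen by the snoRNA level of these arrays, so the drop for snoRNAs was built in. None of these drops is read as evidence.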

How the data were processed

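Liver RNA of 12 mice was measured on Affymetrix whole-transcript arrays with the WT Plus kit, per the labels. The deposited table holds log2 values, and the submitters' processing notes name Expression Console as the authors' software. The sources used here give no version of it, no summarization method and no genome build. Array medians ran from 4.49 to 4.60, and no array was a copy of another. The number of arrays limits the precision, and where nothing says that samples are separate litters, spread between arrays includes technical spread.

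Probe sets (72688) were named through the platform annotation. Those with 1 symbol (30604) gave 30142 genes, each represented by its probe set of highest mean. The 2146 with several symbols were not named. Of the genes, 29837 matched the RefSeq gene table. Genes with a mean over the median of all probe-set means (4.55) were kept. RNA classes came from symbol and gene type.

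Differences are coefficients of limma 3.58.1 (R 4.3.3) with group and array set in the model. Study contrasts used eBayes on the log2 values with Benjamini-Hochberg adjustment over all genes tested, two-sided. The fit was tested on simulated data. The array sets, classes and gene lists were chosen with earlier results of these data known. Genes were named by rule: members of classes or families of up to 6 genes, the 3 widest not overlapping members of each larger class, the 10 widest not overlapping protein-coding genes per direction that differ one way in every group (passing over receptors and symbols of the Gm or Rik kind), the 3 widest of each list, and the 5 genes hosting most snoRNAs. Other names were chosen after their values were seen. Replicate numbers did not pair arrays: of 12 same-number pairs, 3 had correlated deviations over 0.1 (r from -0.51 to 0.32).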

Additional observations from a re-analysis of the deposited data

Results flagged for a closer look

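Within each array set, 137 items gave 274 groups of 5 or 7 arrays, and 22 of these (8.03%) had a highest or lowest array far from the others; chance gives about 1 in 20. Control replicate 2 was the highest of the high set for 9 genes. It read 9.24 for Abcd2, 10.89 for Hmgcs1, 11.87 for Me1, 8.65 for Idi1 and 8.50 for Cyp2b9. For multi-copy genes it read 7.23 for Orly, 6.34 for Speer8-ps1, 6.25 for Speer4c and 6.23 for Vmn1r115.

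Control replicate 3 stood apart in the low set. Its long noncoding RNA level was 5.53, above the others, and it was lowest for the spliceosome list at 6.94, for Gtf3c3 at 6.12 and for Xrn1 at 5.78. MatOb F2 replicate 2 was lowest in the low set for the cytochrome P450 list at 9.40, for Scarna17 at 10.15 and for Rprl3 at 5.19. MatOb F2 replicate 4 was highest in the high set for Scarna10 at 6.35 and lowest for Gm24613 at 7.57 and Gm26440 at 7.66. In MatOb F3, replicate 1 was lowest for Rn4.5s at 11.12, replicate 2 lowest for Cd68 at 6.75 and replicate 3 highest for Lcn2 at 7.48.

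Some differences between sets ran in opposite ways within MatOb F2 and MatOb F3, where MatOb F3 has 1 low array; the difference between the groups was not tested. The scaRNA level differed by 0.14 and -0.11, the long noncoding RNA level by -0.02 and 0.05, and the level of long noncoding snoRNA hosts by -0.02 and 0.03. The 7SL genes Rn7s1 and Rn7s2, which share 1 set of values, differed by 0.05 and -0.04.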

How the results depend on the processing

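Signs turned under some settings for the classes with medians near 0 (pseudogenes, untyped genes, microRNAs and the 7SK class). For untyped genes the reversed medians given below were beyond the spread of arrays, 0.040. Those of pseudogenes, microRNAs and the 7SK class were within their spread. Higher genes without overlap numbered 1285 with no filter and 409 with a stricter one (986 and 286 at 0.3 or more). Lower genes numbered 1389 with quantile normalization, 278 centred on protein-coding genes, 1588 centred on all probe sets and 288 with sets drawn from snRNAs (340, 86, 250 and 38 at 0.3 or more). The protein-coding median was -0.090 with quantile normalization, -0.015 and -0.098 with the centrings, -0.029 with no filter, -0.016 with the stricter one, and -0.047 to -0.029 leaving out 1 array. With quantile normalization the pseudogene median was -0.071, that of untyped genes -0.047 and of rRNA 0.524. Centred on all probe sets, these were -0.071 for pseudogenes, -0.051 for untyped genes, 0.168 for other snoRNAs and -0.035 for the 7SK class. With no filter other snoRNAs had 0.139 and snRNAs 0.146; with the stricter one other snoRNAs had 0.576 and microRNAs 0.054. Sets drawn from snRNAs gave 0.586 for snRNAs, 0.549 for H/ACA, 0.557 for C/D, 0.176 for other snoRNAs and 0.024 for pseudogenes. The cause was not tested, beyond fewer or more genes entering with the filters. With the replicate block, 455 higher and 136 lower genes of 0.3 or more were found, and limma called 0 genes in either study contrast. At an unadjusted p under 0.05 there were 251 and 609, each under a share of 0.05 of the genes tested. No alternative called a gene; the smallest adjusted p was 0.1062 for MatOb F2 without control replicate 1 and 0.08003 for MatOb F3 without control replicate 2. The number of arrays limits the precision.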
